A study of Mus musculus with 3 samples.

Results

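The genes of the mitochondrial ribosomal proteins were taken by name, as all genes whose symbol on the array is Mrpl or Mrps followed by a number and at most 1 letter. This gave 78 genes with 122 probes, out of 26840 genes with 56605 gene probes. RAW macrophages, a mouse cell line, were hybridised on 1-colour microarrays, where the brightness of a probe follows the abundance of its transcript. There was 1 array for each of 3 conditions, and all 3 received LPS, a ligand of TLR4, at 50 ng/mL. The LPS group received no lactobacilli, while the CRL1505 + LPS group was given *L. rhamnosus* CRL1505 and the CRL1506 + LPS group *L. plantarum* CRL1506, each at 50000000 cells/mL for 24 h and washed off before LPS. LPS was applied for 12 h according to the series' design and for 3 h according to the sample descriptions. Arrays of cells without LPS were not analysed here, and LPS alone is the reference of every ratio.

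No condition was replicated, so no test is given, and "past 2-fold" below is a threshold of size only. CRL1505 + LPS was hybridised on a different slide from the one that held both other arrays, and it carries a different scan identifier. The strain CRL1505 therefore cannot be told apart from its slide. Both ratios use the same LPS array. Of the gene spots, 48.5% to 55.3% were well above background, and the signal at the 75th percentile ranged from 517.0 to 743.1. All 10 macrophage markers were well above background on the 3 arrays. Of these, *Adgre1* had log2 signals over the array's 75th percentile of 2.61 with LPS, 4.88 with CRL1505 + LPS and 3.62 with CRL1506 + LPS, and *Csf1r* of 7.34, 5.87 and 6.46. The part of such marker differences in the ratios below was not tested. Among 22 markers of T cells, B cells, fibroblasts, epithelium and mast cells, only *Cd3e*, *Cd3d* and *Cd4* and the B cell markers *Ms4a1* and *Pax5* were well above background on all arrays.

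Mitochondria carry their own ribosome, which makes the few membrane proteins of the respiratory chain that mitochondrial DNA encodes. Its RNA is mitochondrial, but all its proteins are encoded in the nucleus, made in the cytosol and imported, so that the array values below are those of its nuclear-encoded proteins. Some of these proteins descend from those of bacterial ribosomes and others are found only in mitochondria. In macrophages LPS is known to shift energy metabolism from respiration towards glycolysis.

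The probes that the results below turn on are shown so that a reader can see which transcript was read. They are the first 30 of 60 bases of each probe, given as the array files hold them, with positions on mm9. The first is of the member past 2-fold, the second of the member with the highest ratio, the next of a gene whose probes gave like ratios, and the rest of genes whose probes gave unlike ones.
*Mrpl18*, only probe, chr17:13104338-13104397 on the minus strand: gcttcagagcaataatgtgactgaaaactt
*Mrpl24*, RefSeq probe, chr3:87727296-87727355 on the plus strand: agttttcaccttgatggtagaggccttttt
*Mrpl44*, first RefSeq probe, chr1:79777892-79777951 on the plus strand: acacactggtttattactgtgtataatttg
*Mrpl44*, second RefSeq probe, chr1:79774512-79774571 on the plus strand: cttctcaaaactgcatttatcaatagctgc
*Mrps5*, first RefSeq probe, chr2:127416514-127417605 on the plus strand: cacggctcattgtcatccagggaaacaagg
*Mrps5*, second RefSeq probe, chr2:127429365-127429424 on the plus strand: gaaacccaccaacatctggcggataagaag
*Mrpl13*, RefSeq probe, chr15:55365795-55365854 on the minus strand: gaacattacagcaagagactgaatgtttcc
*Mrpl13*, Ensembl transcript probe, chr15:55381049-55381108 on the minus strand: gtgggttcttttgtattagtccatggttca
The 2 *Mrpl13* probes and the 2 *Mrps5* probes lie at different places of the gene, and the first *Mrps5* probe is listed over a span longer than its 60 bases. Which exon or untranslated region a probe lies in was not looked up, because the gene models at hand are of another build than mm9.

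All 78 genes were measured well above background on all 3 arrays, and none had an outlier spot in the probe used. In 7 of them the spot of that probe or its surroundings were uneven, among them *Mrpl50* and *Mrps5*. Without uneven spots 75 genes were left, with a median log2 ratio of -0.09 with CRL1505 and -0.05 with CRL1506. With CRL1505 the median log2 ratio of the 78 genes was -0.05, against 0.06 over all genes measured, with 34 genes above 0 and 44 below. With CRL1506 the median was -0.06, against -0.06 over all genes, with 23 genes above 0 and 55 below. Of all genes compared, 7904 lay above 0 and 7699 below with CRL1505, and 6956 and 9323 with CRL1506. The SD over the 78 genes was 0.37 with CRL1505 and 0.15 with CRL1506, against 0.75 and 0.54 over all genes. The mitochondrial ribosomal protein genes thus varied less among themselves than the genes of the array. In bulk RNA, fewer cells of a type and less RNA per cell cannot be told apart.

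Among these genes, 1 of 78 (1.28%) was past 2-fold with CRL1505, where 18.3% of all genes compared were, and it was lower, as were 8.41% of all genes. With CRL1506 no member was past 2-fold, where 9.2% of all genes were. Past 1.5-fold were 9 members (11.5%) with CRL1505 and none with CRL1506, against 36.3% and 20.9% of all genes. Of the 9, 3 were higher (*Mrpl24*, *Mrps5* and *Mrpl32*), where 19.1% of all genes were, and 6 were lower (*Mrpl18*, *Mrpl34*, *Mrps21*, *Mrpl28*, *Mrps11* and *Mrps26*), where 17.2% were. *Mrps5* counts here through the probe that was brightest on average over the 3 arrays, and its other RefSeq probe stood at -0.02. Other probes of *Mrps21* stood at -0.55 and -0.21. The comparison with all genes includes dim probes. Among the 8157 genes whose log2 signal was over 0 on the LPS array, meaning above the array's 75th percentile, and well above background on all arrays, 12.6% were past 2-fold with CRL1505 and 2.94% with CRL1506, and of the 76 members of this kind 1 was with CRL1505 and none with CRL1506. With CRL1505, 37 members lay within 0.25 of 0 and 62 within 0.5, and with CRL1506 these were 68 and all 78. The shares of all genes within these limits were not counted, so these counts are not read as a trait of the members. With CRL1505 the lower and upper quartiles were -0.27 and 0.22 for the members and -0.295 and 0.38 for the 8157 genes. With CRL1506 they were -0.16 and 0.02 for the members and -0.28 and 0.07 for the 8157 genes.

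**Figure D1:**
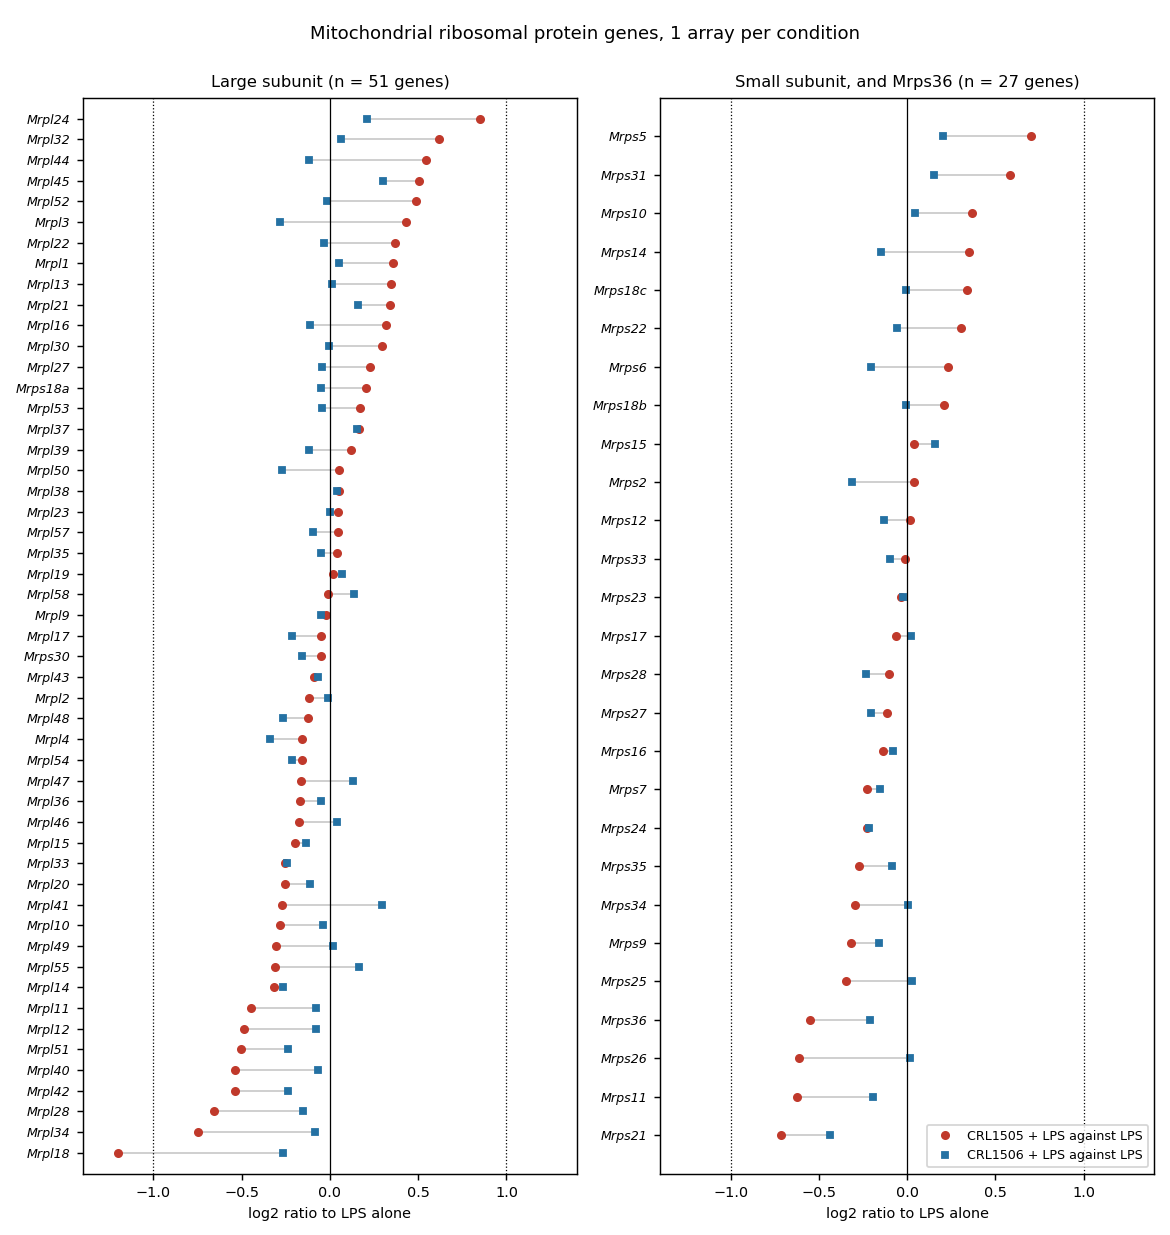
Log2 ratio to LPS alone of the 78 mitochondrial ribosomal protein genes with CRL1505 (circles) and CRL1506 (squares), in 2 panels by subunit and ordered by the CRL1505 ratio, from 1 array per condition, with dotted lines at 2-fold. *Mrpl18* lies past the line at -1.20 with CRL1505, and all squares lie between -0.43 and 0.30.

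*Mrpl18*, a large subunit protein of the central protuberance, was the member past 2-fold. Its log2 signal over the 75th percentile of the array was 3.61 with LPS, 2.41 with CRL1505 + LPS and 3.35 with CRL1506 + LPS. The gene was therefore 2.29-fold lower with CRL1505 than with LPS alone (log2 ratio -1.20), and its ratio with CRL1506 was -0.26. It has 1 probe, so no second probe of the array checks this value. Under other normalizations the ratio with CRL1505 ran from -1.70 to -0.90, and after a shift by the median it was no longer past 2-fold.

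The next lowest ratios in the large subunit with CRL1505 were those of *Mrpl34* at -0.75 and *Mrpl28* at -0.66. *Mrpl34* had log2 signals of 3.02, 2.27 and 2.94 with LPS, CRL1505 + LPS and CRL1506 + LPS, and *Mrpl28* had 2.44, 1.79 and 2.29. In both genes the CRL1505 + LPS array was the low one and the other two lay close together. Below them came *Mrpl42* at -0.54, *Mrpl40* at -0.54, *Mrpl51* at -0.50, *Mrpl12* at -0.48 and *Mrpl11* at -0.45.

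The highest ratio with CRL1505 was that of *Mrpl24*, a protein at the exit tunnel, at 0.85, or 1.80-fold. Its log2 signal was 4.17 with LPS, 5.02 with CRL1505 + LPS and 4.38 with CRL1506 + LPS. *Mrpl32*, a member of the bacterial bL32 family, had 2.94, 3.56 and 3.01, a ratio of 0.62. In both genes the CRL1505 + LPS array was the high one. The other *Mrpl24* probe, which is dim and has no RefSeq mRNA, was not well above background with CRL1505 + LPS and its log2 ratio was at most -0.46, and the mean over both probes, with that bound, was 0.20. *Mrpl44*, whose protein has an RNase III-like fold, had signals of 1.91, 2.45 and 1.79 and a ratio of 0.54, and *Mrpl45*, at the exit tunnel on the inner membrane, had 3.79, 4.29 and 4.09 and a ratio of 0.50.

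In the small subunit the lowest ratios with CRL1505 were those of *Mrps21*, at -0.71, *Mrps11*, at -0.63, and *Mrps26*, at -0.61. *Mrps21* had log2 signals of 5.20, 4.48 and 4.76 with LPS, CRL1505 + LPS and CRL1506 + LPS. Here both lactobacilli arrays lay below LPS. The gene's other RefSeq probe stood at -0.55 with CRL1505 and -0.47 with CRL1506. Its probe without RefSeq mRNA stood at -0.21 and -0.30. *Mrps11* had 1.53, 0.90 and 1.33, and *Mrps26* had 4.97, 4.36 and 4.99, where CRL1505 + LPS alone was low. The highest were those of *Mrps5*, a protein near the mRNA entry with signals of 1.10, 1.80 and 1.30 and a ratio of 0.70, and *Mrps31*, with signals of 2.31, 2.90 and 2.46 and a ratio of 0.58. *Mrps36*, whose protein is now assigned to the 2-oxoglutarate dehydrogenase complex and not to the ribosome, had 2.55 with LPS and 2.34 with CRL1506 + LPS, and a ratio of -0.55 with CRL1505.

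**Figure D2:**
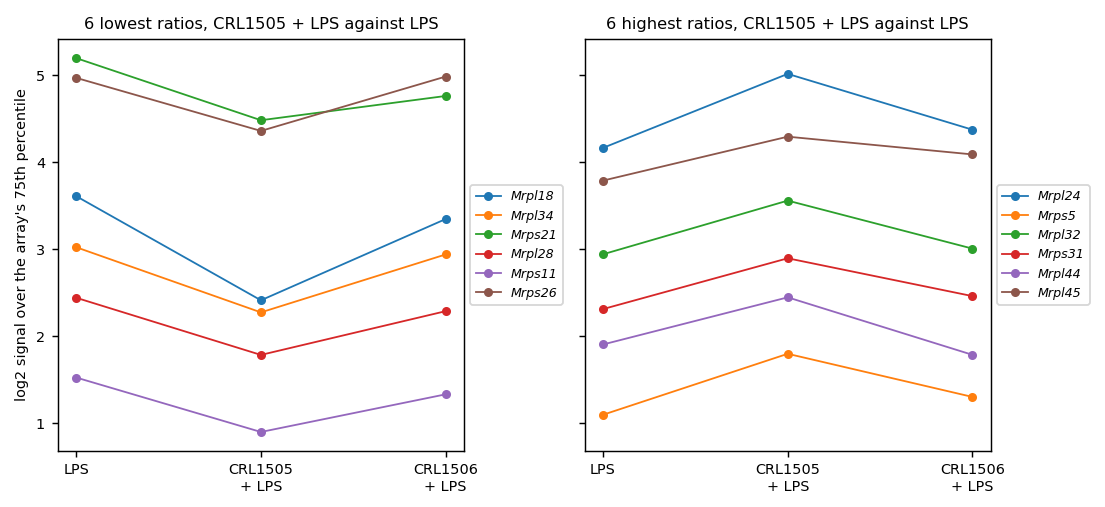
Log2 signal over the array's 75th percentile on each of the 3 arrays for the 6 members with the lowest (left) and the 6 with the highest (right) ratio of CRL1505 + LPS to LPS; each point is 1 array and lines join the values of 1 gene. *Mrpl18* goes from 3.61 with LPS to 2.41 with CRL1505 + LPS, and *Mrpl24* from 4.17 to 5.02.

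With CRL1506 no member passed 1.5-fold, where 20.9% of all genes did. The median SD over different probes of 1 gene was 0.22 on the whole array with CRL1506 and 0.23 with CRL1505. Ratios beyond this SD were seen in 15 members with CRL1506 and in 41 with CRL1505. The share of all genes beyond this SD was not counted. Past 1.5-fold were 20.9% of all genes with CRL1506 and 36.3% with CRL1505. The lowest ratios with CRL1506 were those of *Mrps21* at -0.43, *Mrpl4* at -0.34, *Mrps2* at -0.31, *Mrpl3* at -0.28, *Mrpl50* at -0.27 and *Mrpl14* at -0.27. *Mrpl50* has 1 probe, and its spot or surroundings were uneven. The highest with CRL1506 were *Mrpl45* at 0.30, *Mrpl41* at 0.29, *Mrpl24* at 0.21, *Mrps5* at 0.21, *Mrpl55* at 0.17 and *Mrps15* at 0.16. In *Mrps5* the other RefSeq probe stood at -0.26. *Mrpl4*, whose protein reaches into the exit tunnel near the peptidyl transferase centre, had log2 signals of 4.92 with LPS, 4.76 with CRL1505 + LPS and 4.58 with CRL1506 + LPS. *Mrpl41*, a protein found only in mitochondria, had 3.04, 2.76 and 3.33, so that it lay below LPS with CRL1505 (-0.27) and above it with CRL1506. For these values the size of the ratio is near that of the spread between probes.

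Set side by side, the difference between the arrays CRL1505 + LPS and CRL1506 + LPS had a median of 0.02 over the 78 genes, ran from -0.93 for *Mrpl18* to 0.71 for *Mrpl3*, and was past 2-fold for no member, where 16.5% of all genes were. *Mrpl3*, mutated in a human mitochondrial disease, had log2 signals of 4.40 with LPS, 4.83 with CRL1505 + LPS and 4.12 with CRL1506 + LPS. The absolute ratio to LPS was larger with CRL1505 in 60 members, and over all genes measured in both it was larger in 64.8%. Both comparisons use the same LPS array.

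By place in the ribosome, the 3 genes of the L7/L12 stalk and its base had ratios of -0.45 (*Mrpl11*), -0.48 (*Mrpl12*) and -0.28 (*Mrpl10*) with CRL1505, and -0.08, -0.08 and -0.04 with CRL1506. A second RefSeq probe of *Mrpl10* stood at 0.03 with CRL1505, and after a shift by the median the first stood at 0.01, so the direction of this gene depended on the probe and the scaling. *Mrpl12*, whose protein also binds the mitochondrial RNA polymerase, had log2 signals of 4.69, 4.20 and 4.60 with LPS, CRL1505 + LPS and CRL1506 + LPS. The 6 genes of the exit tunnel rim had a median of 0.21 with CRL1505, from -0.16 for *Mrpl47* to 0.85 for *Mrpl24*, and of 0.06 with CRL1506. The 4 genes near the peptidyl transferase centre had medians of 0.10 and -0.20. The 6 genes of the central protuberance had medians of -0.15 and -0.05, with *Mrpl18* as the lowest of them with CRL1505.

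The subunits differed little. The median with CRL1505 was -0.05 over the 51 large subunit genes and -0.05 over the 26 small subunit genes, and with CRL1506 it was -0.05 and -0.08. The 48 genes with a bacterial counterpart had medians of -0.04 and -0.07, and the 29 found only in mitochondria -0.05 and -0.06. The 3 paralogs of bacterial bS18, of which *Mrps18a* sits in the large subunit in structures, had ratios of 0.21 (*Mrps18a*), 0.21 (*Mrps18b*) and 0.34 (*Mrps18c*) with CRL1505, and of -0.05, -0.01 and -0.01 with CRL1506. *Mrps30*, which also lies in the large subunit, had -0.05 and -0.16. *Mrps12* of the decoding region had 0.02 and -0.13, *Mrps27*, a pentatricopeptide repeat protein, -0.11 and -0.21, and the disease genes *Mrps16* and *Mrps22* -0.14 and -0.08, and 0.31 and -0.06.

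Different probes of 1 member gave like ratios where both read a RefSeq mRNA. The median SD between such probes was 0.08 with either strain, over 22 members with CRL1505 and 23 with CRL1506. The 2 probes of *Mrpl44* gave 0.54 and 0.51 with CRL1505 and -0.12 and -0.24 with CRL1506. The 2 probes of *Mrps5* gave 0.70 and -0.02 with CRL1505 and 0.21 and -0.26 with CRL1506. This gene's high ratios were thus read by only 1 of its RefSeq probes. That probe's spot or its surroundings were uneven, and without such spots the gene stood at -0.02. The same was so for *Mrps18a*, where leaving out the uneven spot left only a dim Ensembl transcript probe, at -0.81.

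Of the 122 probes, 18 had no RefSeq mRNA, and 8 of these stayed near background on all arrays. With CRL1506, 9 of the 18 were measured, and 8 lay above 0, with a median of 0.71, against -0.08 over the 104 probes of RefSeq mRNAs. The *Mrpl13* probe of an Ensembl transcript had log2 signals of -1.10 with LPS, -0.34 with CRL1505 + LPS and 0.36 with CRL1506 + LPS, a ratio of 1.46 with CRL1506, while the RefSeq probe of the same gene stood at 0.01. The probes of *Mrpl24*, *Mrps15* and *Mrps31* without RefSeq mRNA had 0.82, 0.78 and 0.71. With CRL1505 the 7 measured had a median of -0.16. Over all genes of the array with at least 1 RefSeq probe, probes without RefSeq mRNA had a median of 0.32 with CRL1506, against -0.07 for RefSeq probes. Where the log2 signal on the LPS array was under -2, as in 6 of the 9 members' probes, these medians were 0.54 and 0.09.

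**Figure D3:**
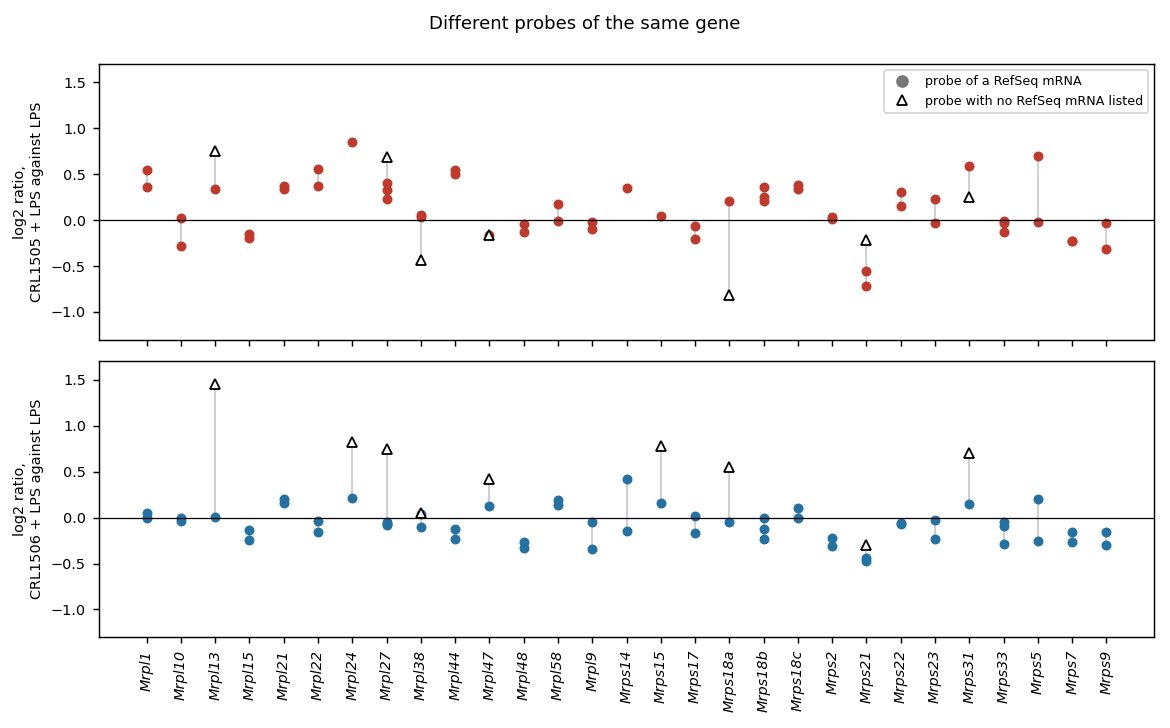
Log2 ratio to LPS alone of every measured probe of the 29 members with more than 1 measured probe in at least 1 comparison, above with CRL1505 and below with CRL1506, with filled circles for probes of a RefSeq mRNA and triangles for probes without one. With CRL1506 most triangles lie above the circles of their gene, as for *Mrpl13* with 1.46 against 0.01.

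Other families of like size were set beside these genes. The 78 cytosolic ribosomal protein genes, which build the ribosome outside mitochondria, had a median of 0.13 with CRL1505 and -0.13 with CRL1506, with an SD of 0.16 and 0.13 and no gene past 2-fold. The 79 oxidative phosphorylation subunit genes that were compared, which include proteins that work beside those made in mitochondria, had medians of -0.10 and -0.10 and an SD of 0.48 and 0.26. In that family *Cox6a2* was the highest, at 3.31 and 1.73, and *Cox7a1* the lowest, at -1.04 and -0.89. With CRL1505 the mitochondrial ribosomal genes spread more widely than the cytosolic ones. In the 5 mitochondrial ribosome genes with other symbols the median was 0.07 and -0.12, and *Gadd45gip1* had -0.70 and -0.13.

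The other genes of mitochondrial translation were taken from lists of known genes. Of 78 such genes, 77 were compared, and 1 was past 2-fold with CRL1505 and none with CRL1506. This was *Rbfa*, a factor of small subunit assembly, whose log2 signal was 0.99 with LPS, -0.10 with CRL1505 + LPS and 0.73 with CRL1506 + LPS (log2 ratios -1.09 and -0.26). The medians with CRL1505 and CRL1506 were -0.08 and -0.09 for 22 assembly factors, -0.11 and -0.04 for 15 translation factors, -0.18 and -0.02 for 17 tRNA synthetases and -0.20 and -0.15 for 10 genes of mitochondrial DNA and transcription. For the 8 regulators of mitochondrial biogenesis that were compared they were 0.22 and -0.18.

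**Figure D4:**
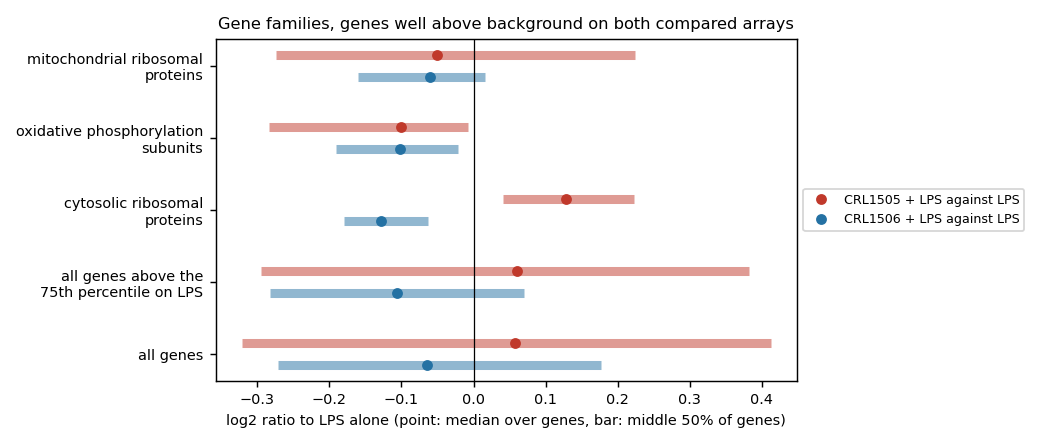
Median log2 ratio to LPS alone (points) and the middle 50% of genes (bars) for mitochondrial ribosomal proteins, oxidative phosphorylation subunits, cytosolic ribosomal proteins, all genes above the 75th percentile on the LPS array and all genes, with CRL1505 in red and CRL1506 in blue, each over genes that both arrays of the comparison measured above background. The median of the mitochondrial ribosomal genes is -0.05 with CRL1505 and that of the cytosolic ones 0.13.

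The level of the ratios depended on the scaling of the arrays. With CRL1505 the median of the 78 genes ran from -0.56 after scaling to spike-in probes to 0.25 after a shift by the median. It stayed 0.11 below the median of all genes under each 75th percentile shift, the median shift and the spike-in scaling. These move all genes of an array alike, so this gap is the same by construction. Under quantile, cyclic loess and normexp processing and in the deposited values the gap was 0.19. With CRL1506 it ran from -0.26 to 0.03, and it stood from 0.02 below to 0.08 above that of all genes. The sign was the same in all normalizations for 23 members with CRL1505 and for 32 with CRL1506. How many of all genes kept their sign was not counted, so these counts are not read as a trait of the members. With CRL1505, 10 members (12.8%) were at least 2-fold lower after spike-in scaling, as were 19.7% of all genes compared. After the median shift 1 member was at least 2-fold higher, *Mrpl24* at 1.15, as were 16.0% of all genes.

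**Figure D5:**
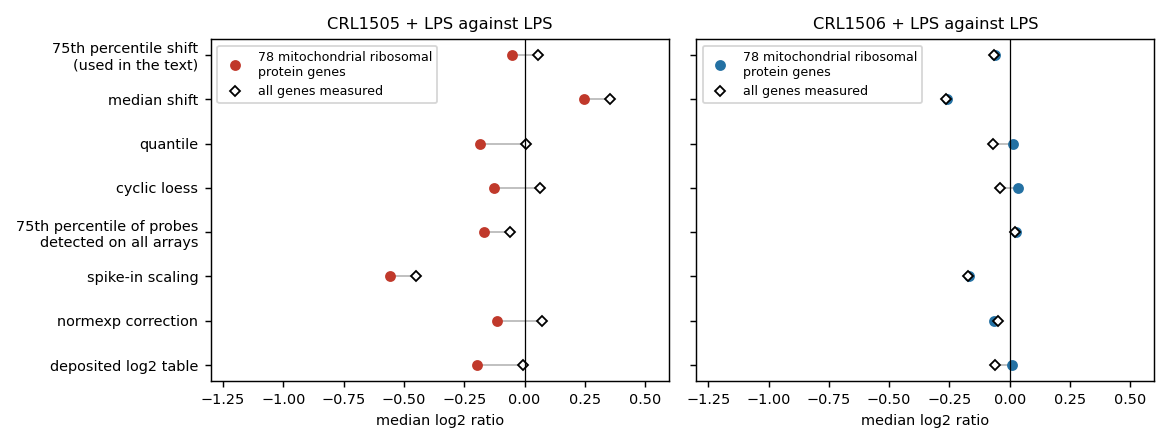
Median log2 ratio to LPS alone of the 78 mitochondrial ribosomal protein genes (circles) and of all genes measured (diamonds) under 8 normalizations, with CRL1505 on the left and CRL1506 on the right. With CRL1505 the circle lies left of the diamond in every row, between -0.56 and 0.25. In the rows of the percentile shifts, the median shift and the spike-in scaling, their distance is the same by construction.

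What the members share that their names did not use was looked for in the RefSeq promoters of GRCm38.p6, each with 250 bases before and 50 after the start. A window was held for 69 of the 78 genes. The NRF1 motif GCGCATGC was in 8 of these (11.6%), the ETS motif CCGGAAGT in 12 (17.4%) and the YY1 motif AAGATGGCG in 8 (11.6%), on either strand. Of 17492 protein-coding genes, 3.94%, 5.69% and 2.14% held them. A gene on the opposite strand started within 1000 bases upstream for 25 members (36.2%) and for 8.66% of protein-coding genes, starts that overlap by under 100 bases included. These matches are letters in a window and not sites shown to be bound. The median ratio with CRL1505 was 0.05 for members with the NRF1 motif and -0.05 for those without, -0.10 and -0.02 for ETS, and -0.14 and -0.02 for YY1.

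The upstream stretches of 3 genes are shown, with matches to the 3 motifs in capitals. The first is that of *Mrpl18*, past 2-fold, the second is all that lies between the starts of 2 members, *Mrps11* and *Mrpl46*, and the third is that of *Mrpl32*, which holds the NRF1 letters 4 times, the first 2 overlapping on opposite strands. They are read 5′ to 3′ on the strand of the named gene and end at the base before its start.
*Mrpl18*, chr17:12916092-12916341 on the minus strand: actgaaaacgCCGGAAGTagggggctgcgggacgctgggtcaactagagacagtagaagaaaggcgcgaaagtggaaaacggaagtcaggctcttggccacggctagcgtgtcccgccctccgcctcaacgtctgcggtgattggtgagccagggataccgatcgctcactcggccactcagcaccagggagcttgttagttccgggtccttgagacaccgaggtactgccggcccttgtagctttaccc
*Mrps11*, chr7:78783090-78783130 on the plus strand: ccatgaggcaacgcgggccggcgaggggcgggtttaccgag
*Mrpl32*, chr13:14613038-14613137 on the minus strand: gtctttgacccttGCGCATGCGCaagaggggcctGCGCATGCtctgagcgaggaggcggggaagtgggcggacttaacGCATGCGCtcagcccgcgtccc
In the *Mrpl18* stretch the ETS letters lie at the far end, across the start of *Tcp1*, a chaperonin subunit gene 238 bases away on the other strand. *Tcp1* had ratios of -0.15 with CRL1505 and -0.31 with CRL1506, while *Mrpl18* had -1.20 and -0.26. *Mrps11* and *Mrpl46*, whose starts are 42 bases apart, had -0.63 and -0.17 with CRL1505, and -0.19 and 0.04 with CRL1506. *Mrpl32* had 0.62 and 0.07, and *Psma2*, the proteasome gene that starts 205 bases from it on the other strand, had 0.40 and 0.01. Of these 3 pairs, *Mrpl18* and *Tcp1* lay farthest apart with CRL1505, but *Mrpl18* was shown because it was past 2-fold. Among the 25 members with such a neighbour, other pairs lay farther apart. With CRL1505 *Mrpl30* had 0.29 and its neighbour *Mitd1* 1.68, and *Mrpl27* had 0.23 and its neighbour *Eme1* -1.10.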

How the data were processed

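RNA of RAW macrophages was hybridised to 1-colour arrays, 1 per condition. The authors deposited, for each array, Feature Extraction spot intensity values (version 12.0.3.1 in the files), with background and spatial trends removed but no scaling between arrays. They also deposited a table of normalized log2 values (GeneSpring by their methods, settings not given in the sources used here), used as an alternative.

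From each array's log2 intensity the 75th percentile of its gene spots was subtracted. Outlier spots were left out, repeated spots averaged, and a gene was read by its brightest probe. Probes well above background on neither array were left out, and with 1 side above background the ratio was a bound. Members and lists were chosen with earlier results of these data known. Named were members past 2-fold, the 6 highest and 6 lowest per strain, members whose probes differed by over 1 (log2), members with a role of their own and, from other lists, genes past 2-fold; other genes were named after their values were seen.

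Normexp, quantile and cyclic loess values came from limma 3.58.1 in R 4.3.3, the rest from pandas 2.3.3 and NumPy 2.4.6 in Python 3.11.15. Alternatives were other normalizations, filters on dim, outlier or uneven spots, the mean over probes, thresholds of 1.5-fold and 4-fold and, chosen after seeing the data, removal of the GC trend. The procedure was tested on simulated data. The share of residues in protein sequences was not analysed here. The number of arrays limits the precision.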

Additional observations from a re-analysis of the deposited data

Results flagged for a closer look

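*Mrpl44* was noted because its ratios had opposite signs with the 2 strains under every normalization. It was 0.54 with CRL1505 and -0.12 with CRL1506, a difference of 0.66 on the log2 scale between the CRL1505 + LPS and CRL1506 + LPS arrays. Its 2 probes gave the same signs. The ratio with CRL1506 was smaller in size than the median SD over different probes of 1 gene, 0.22. Relative to the median of all genes, the ratio with CRL1506 was -0.05, and from -0.08 to 0.001 over the normalizations. The difference was not tested, as there is 1 array per condition, and the arrays lie on different slides.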

How the results depend on the processing

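No paired analysis was possible because there is 1 array per condition. After a shift by the median, the median of the 78 genes was 0.25 with CRL1505 and that of the difference between strains 0.52. After scaling to spike-in probes these were -0.56 and -0.38, and 10 members were past 2-fold with CRL1505. At 1.5-fold that count was 9 and at 4-fold it was 0. The other 62 values of the medians and counts, including those with CRL1506, stayed within the spread taken, the SD between probes, or within 1.5 times the count. Removing the trend with probe GC content, chosen after seeing the data, left 1 member past 2-fold with CRL1505. Among single named members 80 values moved and 724 did not. Most of the moves came from the median shift and the spike-in scaling, and for *Mrpl13*, *Mrpl24*, *Mrps15*, *Mrps18a*, *Mrps31* and *Mrps5* also from averaging a gene's probes. The causes were not tested.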
